A study of Mus musculus with 2 samples.

Results

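Aminoacyl-tRNA synthetases are the enzymes that join each amino acid to its transfer RNA (tRNA), and the genes examined here were taken by symbol from a fixed list of 36. All 36 were among the 23284 genes listed in the RNA-seq data of WT and STAP-1 KO chronic myeloid leukemia (CML) leukemic stem cells (LSCs). Of these, 20 encode enzymes of the cytosol and 16 encode enzymes of the mitochondrion. The question put to them was how their mRNA levels differed between the genotypes and whether the cytosolic and the mitochondrial enzymes differed alike.

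There was 1 library of WT LSCs and 1 library of STAP-1 KO LSCs, so that differences could not be set against replicate error and no test was run. In both, LSK cells (negative for lineage markers, positive for Sca-1 and c-Kit) from the bone marrow (BM) of C57BL/6J (Ly5.2) donors carried human BCR-ABL and green fluorescent protein (GFP) from a retroviral pMSCV-ires-GFP vector. The transduced cells were given to lethally irradiated Ly5.1 congenic recipients together with Ly5.1 BM cells, and GFP+ CD45.2+ LSK cells were sorted at day 11 after the first BM transplantation. The donors were WT mice or mice with a targeted disruption of the STAP-1 gene in every cell, so the STAP-1 KO donor cells had developed without the adapter protein before BCR-ABL was introduced. The study used mice of 8 to 14 weeks, and how many animals were pooled in a library is not given in the sources used here. BCR-ABL came from the retrovirus in both libraries, so the cells model CML initiated by overexpression and not by the chromosomal translocation.

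Each synthetase recognizes its amino acid and the matching tRNAs, and the charged tRNAs are brought to the ribosome by elongation factors. Mammalian cells run this reaction in the cytosol and separately in mitochondria, and most mitochondrial enzymes come from a nuclear gene of their own, written with the suffix 2. Several cytosolic enzymes sit in a multisynthetase complex held together by scaffold proteins, and phenylalanyl-tRNA synthetase of the cytosol consists of α and β subunits from separate genes. When amino acids are scarce, uncharged tRNA activates the kinase GCN2, and the transcription factor ATF4 then binds CARE sequences (C/EBP-ATF response elements) in its target genes, which include many cytosolic synthetase genes. The E-box CACGTG is the sequence bound by MYC with MAX.

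Promoters were searched for both sequences because ATF4 is known to act on many cytosolic synthetase genes and MYC on genes of protein synthesis. The windows run from 250 bases before to 50 bases after each RefSeq gene start on GRCm38.p6, and one was at hand for 26 of the 36 genes, 12 of them cytosolic and 14 mitochondrial. The CARE letters TGATGNAA, on either strand, occurred in 5 of the 26 genes (19.2%), against 3.97% of all 32851 promoters searched. All 5 were cytosolic. For each gene, matched letters are given in capitals within 30 bases on the strand of the gene.

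Yars, chr4:129189895-129189924, plus strand: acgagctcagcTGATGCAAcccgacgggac

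Gars, chr6:55037960-55037989, plus strand: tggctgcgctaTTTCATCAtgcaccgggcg

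Aars, chr8:111033840-111033869, plus strand: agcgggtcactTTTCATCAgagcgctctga

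Iars, chr13:49682126-49682155, plus strand: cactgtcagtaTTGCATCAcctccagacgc

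Tars, chr15:11399655-11399684, minus strand: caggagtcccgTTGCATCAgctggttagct

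Counted with 0 at the annotated start, the first base of the printed match lay at 3 in Yars, at -30 in Gars, at 9 in Aars, at 7 in Iars and at -15 in Tars. The E-box CACGTG, which reads the same on both strands, occurred in 5 of the 26 genes as well (19.2%, against 7.15% of all promoters), and 4 of these were cytosolic. Aars, Iars and Tars held both motifs, at letters that did not overlap. Farsb and Ears2 held the E-box and not the CARE letters, and their windows are shown since Farsb was among the genes at least 2-fold higher in STAP-1 KO LSCs and Ears2 was the only mitochondrial gene with a match among the 14 searched.

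Farsb, chr1:78488919-78488948, minus strand: ttagacaggcatCACGTGagacagcccaag

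Ears2, chr7:122067048-122067077, minus strand: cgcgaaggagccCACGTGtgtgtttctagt

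A match describes letters in this window and is no evidence of binding, and the motifs were chosen after expression values had been seen.

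Expression was given as FPKM (fragments per kilobase of transcript, scaled to the library), which is already divided by length, so that levels can be compared between genes. Ratios are log2((STAP-1 KO + 0.1)/(WT + 0.1)), which slightly understates the difference of low genes. From the steps between low values, the effective depth was estimated at 7500000 reads (WT) and 10470000 reads (STAP-1 KO). The estimated reads behind a synthetase gene ran from 58 to 11180 in the WT library. The 95% counting interval of a log2 ratio had a half-width of 0.04 to 0.43, and it covers counting error only, since amplified reads are not independent molecules and variation between mice is not included.

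The label check and the rest of the cells were as follows. Stap1 had 62.0 FPKM in WT and 0.309 FPKM in STAP-1 KO LSCs. Of the antigens of the sort, Kit had 468 and 30.1 FPKM, and the Sca-1 gene Ly6a had 285 and 106 FPKM, with the WT value first. The lineage genes Cd3e, Cd8a and Itgam were below 2 FPKM in both libraries (Cd3e at 1.09, Cd8a at 0.132 and Itgam at 1.56 FPKM in the STAP-1 KO library). All 8 mast cell genes were lower in STAP-1 KO LSCs, with Tpsab1, Tpsb2 and Hdc the furthest, and their sum went from 7.48% to 0.7% of all FPKM. All 5 primary granule genes were higher, with Ms4a3, Prtn3 and Ctsg the furthest, from 0.0868% to 0.765%, and none of these 13 genes was at 0. The 3 listed erythroid genes had log2 ratios from -0.40 to 0.07, and of the B lymphoid genes Ebf1 and Pax5 were at 0 in both libraries while Cd79b had 3.10 and 17.8 FPKM. Of 13 cell cycle genes 12 were higher (48.3% of all genes with a mean FPKM of 1 or more). They were led by Cdk1 (36.5 and 103 FPKM) and Aurkb (67.9 and 161 FPKM). Mki67 was lower (17.4 and 7.89 FPKM), with a log2 ratio of -1.13, and of -0.09 after the correction for transcript length described below. Myc, chosen after its values were seen, had 59.3 and 169 FPKM. The part of these differences in the synthetase values was not tested, and in sorted bulk cells fewer cells of a type and less RNA per cell cannot be told apart.

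Most synthetase genes were higher in STAP-1 KO LSCs. Of the 36 genes, 28 had a higher value there and 8 a lower one, against 48.3% of the 10974 genes with a mean FPKM of 1 or more that were above 0. The median log2 ratio of the 36 genes was 0.58, beside -0.04 for all those genes. Their ratios ran from -0.73 for Vars to 1.40 for Yars2, with an SD of 0.5. The counting interval lay above 0 in 26 genes and below 0 in 5, and it held 0 in the other 5, which were Aars, Iars, Lars, Aars2 and Vars2.

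The differences were moderate in size. At least 2-fold higher, with both libraries at 0.1 FPKM or more, were 5 genes, namely Farsa, Farsb, Cars2, Pars2 and Yars2, whereas 12.3% of the 12507 genes so compared were at least 2-fold higher. None was at least 2-fold lower, against 22.9% of all genes compared and against 20.4% of the 9238 genes in the same range of mean FPKM. Of those 9238 genes 10.7% were at least 2-fold higher. As deposited, the share of synthetases past 2-fold in the upward direction was thus near the background, but it depended on the scaling, with 9 of the 36 genes past it (15.2% of all genes) when each library was divided by its total FPKM. At 1.5-fold, 18 of the 36 genes were higher (25.6% of all genes compared) and only Vars was lower (32.8%). Together the 36 genes took up 2299 FPKM in WT and 3075 FPKM in STAP-1 KO LSCs, or 0.354% and 0.509% of all FPKM.

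**Figure D1:**
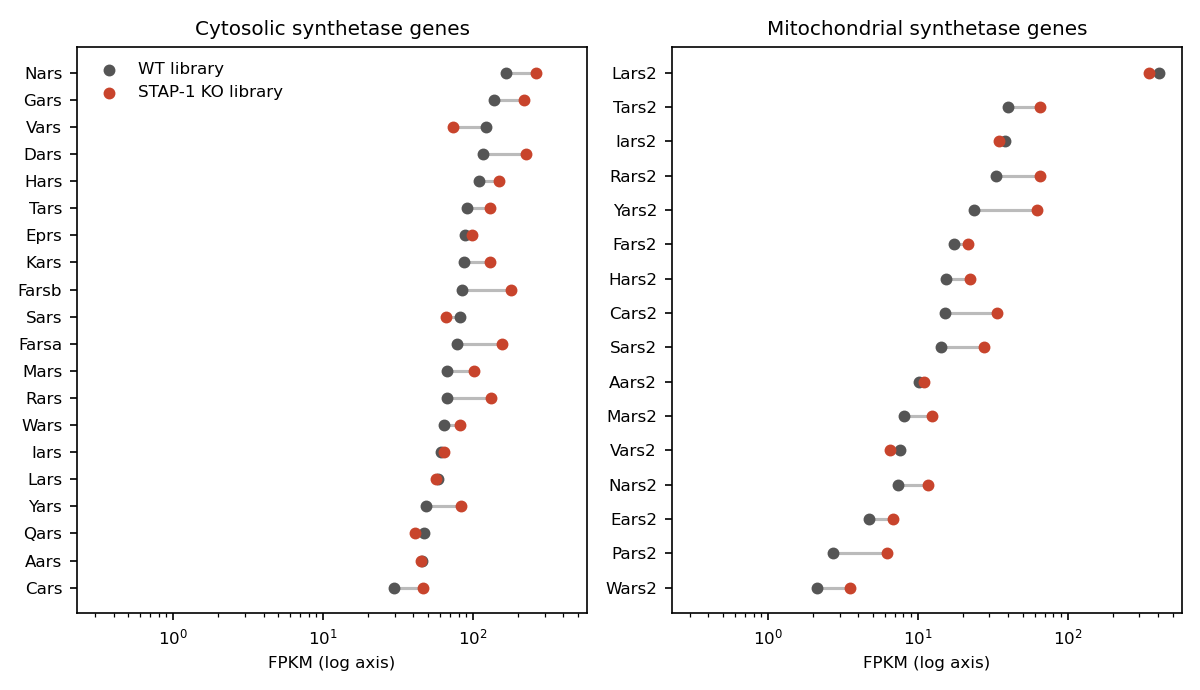
FPKM of each synthetase gene (log axis) in the WT library (grey) and the STAP-1 KO library (red), with 1 library per genotype and the cytosolic genes on the left. Cytosolic genes lie between 29.7 and 262 FPKM, whereas the mitochondrial genes other than Lars2 lie between 2.11 and 65.3 FPKM.

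Among the cytosolic enzymes, 15 of 20 had a higher value in the STAP-1 KO library, and the median log2 ratio was 0.53. The median level went from 80.1 to 100 FPKM and the sum from 1655 to 2335 FPKM, a ratio of 1.41. The furthest upward were both subunits of phenylalanyl-tRNA synthetase. Farsa, the α subunit gene (chromosome 8 of GRCm38, 84856989 to 84869257, plus strand), had 78.0 FPKM in WT and 157 FPKM in STAP-1 KO LSCs, a log2 ratio of 1.01 with a counting interval from 0.90 to 1.12. Farsb, the β subunit gene (chromosome 1, 78417975 to 78488897, minus strand), had 84.5 and 178 FPKM, a log2 ratio of 1.07 with an interval from 0.98 to 1.17. The 2 subunit genes, on different chromosomes, were thus at like levels in each library and differed by like ratios.

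The genes of the enzymes for charged amino acids all had higher values in STAP-1 KO LSCs, by differing amounts. Rars (arginine) had 66.7 FPKM in WT and 132 FPKM in STAP-1 KO LSCs, a log2 ratio of 0.98. Dars (aspartate) had 117 and 224 FPKM, a log2 ratio of 0.94. Kars (lysine), whose gene also encodes the mitochondrial lysyl enzyme, had 87.4 and 129 FPKM, a log2 ratio of 0.56. Hars (histidine) was at 110 and 148 FPKM with a log2 ratio of 0.42, and thus nearer to the median of all genes. Eprs, a single chain that charges both glutamate and proline and is the longest of the 36 coding sequences at 4536 bases, was at 88.2 and 98.8 FPKM with a log2 ratio of 0.16.

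Of the other cytosolic genes, Yars, Wars, Gars, Nars, Cars, Tars and Mars also had higher values. Yars (tyrosine) had 48.8 FPKM in WT and 82.6 FPKM in STAP-1 KO LSCs, a log2 ratio of 0.76, and Wars (tryptophan) had 63.9 and 82.2 FPKM, a log2 ratio of 0.36. Gars (glycine), which like Kars serves both compartments, had 138 and 218 FPKM, a log2 ratio of 0.66. Nars (asparagine) was the most abundant cytosolic synthetase mRNA in both libraries, with 166 and 262 FPKM and a log2 ratio of 0.66. Cars (cysteine) was the least abundant in the WT library, and its 29.7 and 46.4 FPKM gave a log2 ratio of 0.64. Tars (threonine) had 91.8 and 130 FPKM, a log2 ratio of 0.50, and Mars (methionine) had 66.9 and 101 FPKM, a log2 ratio of 0.60. All of these lay above 0 by more than their counting intervals.

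The remaining cytosolic genes were near 0 or lower in STAP-1 KO LSCs. Aars (alanine) had 45.5 and 44.9 FPKM, Iars (isoleucine) 61.1 and 63.7 FPKM and Lars (leucine) 58.7 and 56.4 FPKM, and their log2 ratios of -0.02, 0.06 and -0.06 could not be told from 0 at this depth. Those of Aars and Lars became positive when each library was divided by its total FPKM (0.08 and 0.05). Qars (glutamine) had 47.2 FPKM in WT and 40.7 FPKM in STAP-1 KO LSCs, a log2 ratio of -0.21. Sars (serine; chromosome 3, 108424865 to 108445209, minus strand) had 82.2 and 65.8 FPKM, a log2 ratio of -0.32 with an interval from -0.44 to -0.20. Vars (valine; chromosome 17, 35000987 to 35016322, plus strand) stood furthest down, with 122 and 73.8 FPKM and a log2 ratio of -0.73 (interval from -0.80 to -0.66). It was the third most abundant cytosolic synthetase mRNA in the WT library and 14th of 20 in the STAP-1 KO library.

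**Figure D2:**
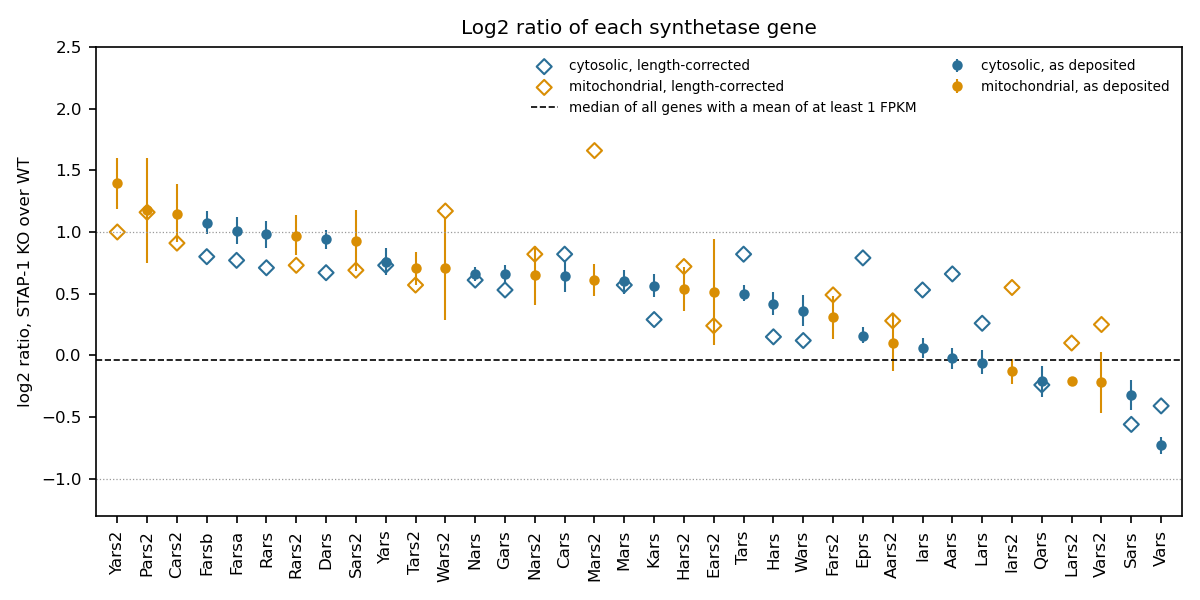
Log2 ratio (STAP-1 KO over WT) of the 36 synthetase genes in descending order, with filled points for the values as deposited, bars for the 95% counting interval (counting error only) and open diamonds for the values after a correction for transcript length. The dashed line is the median of all genes with a mean FPKM of 1 or more (-0.04), dotted lines mark 2-fold, and only Sars, Vars and Qars have diamonds below 0.

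Of the mitochondrial enzymes, 13 of 16 had a higher value in the STAP-1 KO library, with a median log2 ratio of 0.63. They were expressed at lower levels than the cytosolic enzymes, with a median of 14.7 FPKM in WT and 22 FPKM in STAP-1 KO LSCs. Yars2 (tyrosine; chromosome 16, 16302965 to 16309640, plus strand) had 23.6 FPKM in WT and 62.2 FPKM in STAP-1 KO LSCs. Its log2 ratio of 1.40 (interval from 1.19 to 1.60) was the highest of the 36. Pars2 (proline; chromosome 4, 106651069 to 106655282, plus strand) had 2.71 and 6.24 FPKM, a log2 ratio of 1.18. This rests on about 58 and 186 reads, and its interval from 0.75 to 1.60 includes values below 2-fold. Cars2 (cysteine; chromosome 8, 11513977 to 11550783, minus strand) had 15.1 and 33.7 FPKM, a log2 ratio of 1.15 with an interval from 0.92 to 1.39.

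A further group lay just under 2-fold or in the middle of the range. Rars2 (arginine) had 33.0 FPKM in WT and 64.8 FPKM in STAP-1 KO LSCs, a log2 ratio of 0.97, and Sars2 (serine) had 14.3 and 27.4 FPKM, a log2 ratio of 0.93. Tars2 (threonine) was at 40.0 and 65.3 FPKM and Wars2 (tryptophan), the least abundant of the 36, at 2.11 and 3.50 FPKM, both with a log2 ratio of 0.71. Although these ratios are equal, that of Wars2 has an interval from 0.29 to 1.12 and that of Tars2 one from 0.57 to 0.84. Nars2 (asparagine) had 7.37 and 11.6 FPKM, Mars2 (methionine) 8.08 and 12.4 FPKM and Hars2 (histidine) 15.4 and 22.4 FPKM, with log2 ratios of 0.65, 0.61 and 0.54. Ears2 (glutamate) had 4.72 and 6.77 FPKM, a log2 ratio of 0.51 with an interval from 0.08 to 0.94. Fars2, the single-chain mitochondrial phenylalanyl enzyme, had 17.5 and 21.7 FPKM, a log2 ratio of 0.31. The intervals of these 9 genes lay above 0.

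Near 0 or lower were Aars2, Iars2, Vars2 and Lars2. Aars2 (alanine) had 10.1 and 10.9 FPKM and Vars2 (valine) 7.56 and 6.48 FPKM, with log2 ratios of 0.10 and -0.22 whose intervals held 0. Iars2 (isoleucine) had 38.3 and 35 FPKM, a log2 ratio of -0.13. Lars2 (leucine; chromosome 9, 123366927 to 123462666, plus strand) had 405 FPKM in WT and 349 FPKM in STAP-1 KO LSCs, a log2 ratio of -0.21 with an interval from -0.25 to -0.18. It was the most abundant synthetase mRNA of either compartment in both libraries, 10.1-fold above the next mitochondrial gene, Tars2, in the WT library and 5.35-fold above it in the STAP-1 KO library. Whether all reads assigned to Lars2 came from this gene could not be tested from FPKM values, so its level, rank and share are those of the reads assigned to it. Lars2 alone made up 62.8% and 47.2% of the summed mitochondrial FPKM. The sum of the mitochondrial genes went from 645 to 740 FPKM, a ratio of 1.15, and without Lars2 it went from 240 to 390 FPKM, a ratio of 1.63.

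The cytosolic and the mitochondrial genes thus covered overlapping ranges of log2 ratios, from -0.73 to 1.07 and from -0.22 to 1.40. Their medians differed by -0.10 (cytosolic minus mitochondrial), with an SD of 0.49 among the cytosolic and of 0.5 among the mitochondrial genes. With 1 library per genotype this difference has no replicate error and is given as a description. The median counting half-width for it was 0.24. When the 2 genes that serve both compartments, Gars and Kars, were left out the difference was -0.17.

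The same comparison was made for each amino acid, in 15 pairs over 14 amino acids, since Farsa and Farsb were each set against Fars2. The mitochondrial gene had the higher log2 ratio in 9 pairs and the cytosolic gene in 6, and the median difference was -0.11. In 9 of the 15 pairs the difference exceeded its 95% counting interval, with the mitochondrial gene higher in 5 (Cars2, Sars2, Tars2, Vars2 and Yars2) and the cytosolic gene higher in 4 (Farsa, Farsb, Iars and Lars). The serine pair stood furthest apart. Sars was lower and Sars2 higher in STAP-1 KO LSCs, a difference in log2 ratio of -1.25 ± 0.28 (95% half-width, counting error only), so the level of Sars over Sars2 went from 5.73-fold to 2.40-fold.

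Phenylalanine showed the widest difference in the other direction. The difference was 0.77 ± 0.20 for Farsb against Fars2 and 0.70 ± 0.20 for Farsa. For tyrosine it was -0.64 ± 0.23, as Yars2 exceeded Yars, and for both cysteine and valine it was -0.51 (± 0.27 and ± 0.26). Other pairs had like ratios as deposited. For arginine the difference was 0.01 ± 0.20, for asparagine 0.00 ± 0.25 and for methionine -0.01 ± 0.16, although Nars stood 22.6-fold above Nars2 in the WT library and Rars only 2.02-fold above Rars2. After a correction for transcript length, which subtracts the median of genes of like length, many of these differences changed, and they depended on the annotated transcript taken. The 2 values that follow are for the transcript with the longest coding sequence and for the longest transcript. The serine difference was -1.25 and -0.71, the valine difference -0.66 and -0.60 and the arginine difference -0.02 and 0.13. For methionine it became -1.08 and -1.10 and for tryptophan -1.05 and -0.73, for histidine it went from -0.11 to -0.57 and -0.53, and for asparagine it was -0.21 and -0.22. The difference of Farsb against Fars2 was 0.31 and 0.35, whereas that of Farsa was 0.28 and 0.70, that of cysteine -0.09 and -0.43 and that of tyrosine -0.27 and -0.64. Alanine (0.37 and 0.47), isoleucine (-0.02 and -0.09) and asparagine, which was just above 0 before rounding, changed sign under both. Threonine (0.24 and -0.16) and arginine did so under the first only. The mitochondrial ratio was higher in 10 of the 15 pairs under each, with a median difference of -0.09 and -0.22.

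In level, the cytosolic gene exceeded its mitochondrial counterpart in 14 of 15 pairs in each library. In these 14 pairs the cytosolic level was 1.60-fold to 30.3-fold that of the mitochondrial gene in the WT library and 1.33-fold to 23.5-fold in the STAP-1 KO library. Tryptophan had the widest spacing in both. Leucine was the exception, with Lars at 0.145 and 0.162 of the Lars2 level.

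Longer synthetase genes had lower ratios, as did longer genes in these libraries in general. Across the 36 genes, the log2 ratio was negatively related to the length of the annotated transcript, with a Spearman's rank correlation of -0.53, and it was -0.43 in the 20 cytosolic and -0.70 in the 16 mitochondrial genes. Across 10862 genes it was -0.39. These correlations are over genes of 1 pair of libraries, which are not independent replicates. Among all genes the median log2 ratio went from 0.53 in the shortest of 20 length bins to -1.04 in the longest.

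The 8 genes with at least 2900 coding bases, which were Aars, Aars2, Eprs, Iars, Iars2, Lars, Vars and Vars2, had log2 ratios from -0.73 to 0.16 with a median of -0.04. The other 28 had a median of 0.65. The limit of 2900 was set by no fixed rule, and just below it were Mars (2730 bases, 0.60) and Lars2 (2706 bases, -0.21). With the length correction the 8 genes ran from -0.41 for Vars to 0.79 for Eprs, and only Vars was then below 0. Of the 10 cytosolic genes with the shortest coding sequences (1443 to 1980 bases) 1 was lower in STAP-1 KO LSCs, and of the 10 with the longest (2166 to 4536 bases) 4 were lower.

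When the median of genes of like transcript length was subtracted, 33 of the 36 log2 ratios were above 0, beside 50.0% of the 10862 genes. All 16 mitochondrial genes were then above 0, and of the cytosolic genes only Qars (-0.24), Vars (-0.41) and Sars (-0.56) were below. The corrected medians were 0.59 for the cytosolic and 0.70 for the mitochondrial genes. Aars went from -0.02 to 0.66 on this scale, Eprs from 0.16 to 0.79 and Iars2 from -0.13 to 0.55, whereas Yars2 went from 1.40 to 1.0. Of the genes past 2-fold as deposited, Farsa (0.77), Farsb (0.80) and Cars2 (0.91) were then under it, and with the longest transcript Farsb (0.65) was while Farsa was at 1.0 and Cars2 at 1.07. After the main correction 4 genes were past 2-fold (11.7% of all genes), namely Mars2, Wars2 (1.17), Pars2 (1.16) and Yars2. Wars2, at 0.71 as deposited, has 1080 coding bases in a transcript of 4410. Mars2 was highest at 1.66, but its annotated transcript of 11294 bases in a single exon holds 1758 coding bases, so its correction rests on a long untranslated stretch whose use in these cells was not tested. With the longest annotated transcript in place of the one with the longest coding sequence, 31 genes were above 0. Lars2 was then at -0.15 and Hars at -0.0, and Qars, Sars and Vars were again below 0.

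**Figure D3:**
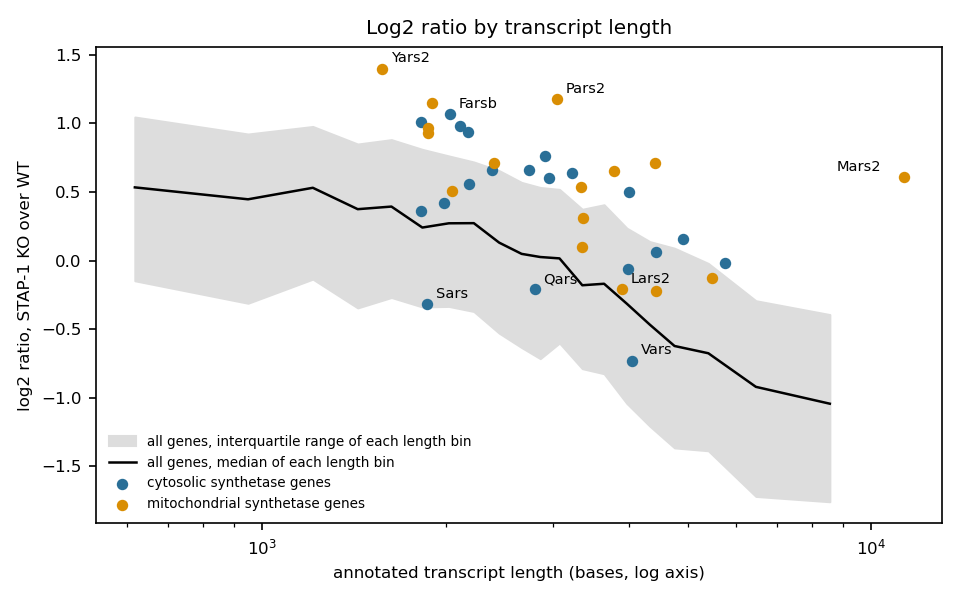
Log2 ratio (STAP-1 KO over WT) of the synthetase genes against annotated transcript length in bases (log axis), with the median (line) and interquartile range (band) of all genes in 20 length bins. Most synthetase genes lie above the line, including long ones, whereas Sars, Qars and Vars lie below it.

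Synthetases fall into 2 classes by the fold of their catalytic domain, and both classes were examined apart from Eprs, which holds a domain of each. The 18 class I genes had a median log2 ratio of 0.55, with 12 above and 6 below 0. The 17 class II genes had a median of 0.65, with 15 above and 2 below 0, the latter being Aars and Sars. After the length correction the medians were 0.56 and 0.66. The class II transcripts were shorter, with a median of 2400 bases against 3092 in class I.

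The multisynthetase complex was then examined. Its 8 synthetase genes (Dars, Eprs, Iars, Kars, Lars, Mars, Qars and Rars) had a median log2 ratio of 0.36 with 6 above 0, and the 12 cytosolic synthetase genes outside it had 0.57 with 9 above 0. Within the complex the ratios ran from -0.21 for Qars to 0.98 for Rars, so its enzymes did not share a ratio. The 3 scaffold genes were all at least 2-fold higher in STAP-1 KO LSCs (12.3% over all genes). Aimp1 had 39.4 and 85.5 FPKM, Aimp2 65.9 and 141 FPKM and Eef1e1, which encodes AIMP3, 81.2 and 180 FPKM, with log2 ratios of 1.12, 1.09 and 1.15. Their transcripts are short, with a median of 1185 bases, and after the length correction Aimp1 (0.58) and Aimp2 (0.56) were under 2-fold and Eef1e1 was not. The corrected median was 0.58 beside 0.55 for the 8 enzymes.

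Genes that respond to ATF4 included 12 of the cytosolic synthetases, listed from general knowledge (Aars, Cars, Eprs, Gars, Iars, Lars, Mars, Nars, Sars, Tars, Wars and Yars). Their median log2 ratio was 0.43 with 9 above 0, and the other 8 cytosolic genes had a median of 0.75 with 6 above 0. After the length correction the order was the opposite, at 0.59 and 0.48. The 5 genes with the CARE letters shown above had a median of 0.50, beside 0.56 for the 7 cytosolic genes whose promoters were searched and did not hold them. The 4 cytosolic genes with an E-box had a median of 0.28, beside 0.61 for the 8 without one. These medians are descriptions of small groups, and their differences were not tested.

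The other genes of the amino acid response did not share 1 direction. Of 25, 4 were at least 2-fold higher and 6 at least 2-fold lower in STAP-1 KO LSCs, near the shares over all genes (12.3% and 22.9%), and the 24 with a mean FPKM of 1 or more had a median log2 ratio of 0.30 (0.08 with the length correction), with 13 above and 11 below 0. Phgdh, the first enzyme of serine synthesis, had 37.6 and 124 FPKM, a log2 ratio of 1.72. In contrast, the leucine transporter gene Slc7a5 had 147 and 46.0 FPKM, a log2 ratio of -1.67, and Ddit4, an inhibitor of mTORC1 signaling, had 10.8 and 2.91 FPKM, a log2 ratio of -1.86. These genes, the furthest from 0 in this list, thus lay in both directions. Atf4 itself (114 and 177 FPKM) and the asparagine synthetase gene Asns (113 and 108 FPKM), chosen after their values were seen, had log2 ratios of 0.63 and -0.06, and of 0.23 and -0.34 with the length correction.

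Of 5 genes around eIF2α phosphorylation, which links uncharged tRNA to ATF4, 4 were lower in STAP-1 KO LSCs and 2 of them at least 2-fold (22.9% over all genes). Eif2ak3, which encodes PERK, had 7.87 and 2.72 FPKM (log2 ratio -1.50), and Eif2ak4, which encodes the uncharged-tRNA sensor GCN2, had 9.78 and 4.80 FPKM (-1.01). Eif2ak2, which encodes PKR, was the only one above 0 with 5.83 and 8.68 FPKM (0.57). These transcripts are long. With the length correction the log2 ratio of Eif2ak4 was -0.34 and no longer past 2-fold, that of Eif2ak3 was -1.03, that of Eif2ak2 was 1.03, and the median of the list went from -0.54 to -0.31.

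Genes that act on charged tRNA were described in both compartments. Of 5 cytosolic elongation factor genes 4 were above 0, with a median of 0.56, and those furthest from 0 were Eef1d (74.6 and 161 FPKM, log2 ratio 1.11), Eef1g (0.75) and Eef1b2 (0.56), which all encode subunits of the nucleotide exchange factor of eEF1A. Of 12 mitochondrial translation factor and amidotransferase genes 10 were above 0, with a median of 0.60. Mtrf1, a release factor gene, had 3.87 and 10.4 FPKM (1.40), and Tufm, the mitochondrial elongation factor that delivers charged tRNA, had 8.73 and 21.8 FPKM (1.31). Mrrf, the ribosome recycling factor gene, had a log2 ratio of 0.94. After the length correction the medians were 0.29 for the cytosolic and 0.49 for the mitochondrial factors, below those of the synthetases (0.59 and 0.70).

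Of 5 genes for proofreading of mischarged tRNA or for making selenocysteinyl-tRNA, 3 were above 0. Aarsd1, which hydrolyzes mischarged alanyl-tRNA, had 47.1 and 109 FPKM (log2 ratio 1.21), and Dtd1, which removes D-amino acids from tRNA, had 35.4 and 79.6 FPKM (1.17). After the length correction their log2 ratios were 0.84 and 0.79, beside 0.66 for Aars. The selenocysteine pathway kinase gene Pstk had 13.3 and 20.2 FPKM (0.60, and 0.07 with the length correction).

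For the supply of tRNA, the 22 genes of RNA polymerase III and its factors had a median log2 ratio of 0.09, with 14 above 0 and 2 at least 2-fold lower (22.9% over all genes). These were Gtf3c1, the largest subunit of TFIIIC, with 14 and 2.39 FPKM (-2.49), and Polr3gl with 15.6 and 4.88 FPKM (-1.66), whereas Polr3k stood highest with 38.1 and 74.9 FPKM (0.97). Most genes of tRNA maturation had higher values in STAP-1 KO LSCs. Of 21 with a mean FPKM of 1 or more 19 were above 0, with a median of 0.71, and the furthest were the RNase P subunit genes Rpp40 (7.60 and 20.3 FPKM, 1.41), Rpp30 (41.4 and 106 FPKM, 1.35) and Rpp14 (24.1 and 57.4 FPKM, 1.25). Rpp25, a further RNase P subunit gene whose mean was below 1 FPKM, had 1.52 and 0.336 FPKM (-1.90). After the length correction the median of the list was 0.45.

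The mitochondrial ribosomal proteins, which use the tRNAs charged by the mitochondrial synthetases, gave a further comparison. All 75 with a mean FPKM of 1 or more had a log2 ratio above 0, with a median of 0.93, and 30 of 76 were at least 2-fold higher (12.3% over all genes). After the length correction their median was 0.61 and that of the mitochondrial synthetases was 0.70, as the ribosomal protein transcripts were short (a median of 1316 bases).

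**Figure D4:**
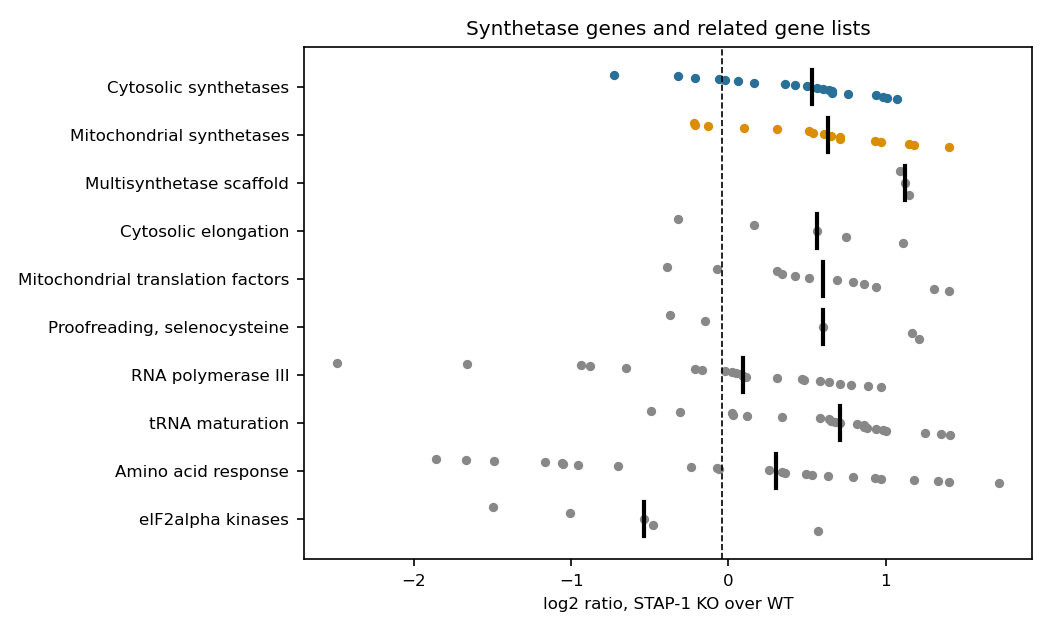
Log2 ratio (STAP-1 KO over WT) of the cytosolic (blue) and mitochondrial (orange) synthetase genes and of 8 related lists (grey), with 1 point per gene with a mean FPKM of 1 or more, spread vertically only for legibility. Black bars are list medians and the dashed line is the median of all genes (-0.04). The list labeled eIF2alpha kinases, which holds the Eif2ak genes and Impact, is at -0.54 and the scaffold genes are at 1.12.

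Exon bases shared with another annotated gene were found for 13 synthetase genes. The cDNA kit does not mark strand, so reads from exons on opposite strands cannot be told apart. Aars shares 1326 exonic bases with Exosc6 on the same strand, and Exosc6 had 30.7 and 60.6 FPKM. Iars2 shares 2034 bases with Rab3gap2 on the opposite strand, which had 20.3 and 10.1 FPKM. Farsb shares 248 bases with Sgpp2, which was at 0.106 and 0.151 FPKM, far below Farsb. Cars2 and Naxd share 422 bases, Fars2 and Nrn1 501, Vars2 and Gm20483 465, Nars2 and C230038L03Rik 284, and Hars and Hars2 195, while Cars, Ears2, Mars and Yars share 30 to 211 bases with a neighbor. Iars has a processed pseudogene, Gm4849, that matches 1656 bases at 96.0% identity, and no other synthetase had a copy of at least 75 bases at 95% identity among the annotated transcripts. Without all 14 of these genes the cytosolic median was 0.50 and the mitochondrial median 0.71. Of the 22 genes left 3 were at least 2-fold higher (12.3% over all genes).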

How the data were processed

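The authors amplified cDNA with a SMART-Seq low-input kit and mapped single reads to mm10, and they deposited 1 FPKM value per gene and library. The submitters' processing notes name TopHat2 2.0.13, Bowtie2 2.2.3, SAMtools 0.1.19 and Cufflinks 2.2.1. The gene annotation is not given in the sources used here.

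The FPKM values were used as deposited, and handled in Python 3.11.15 by pandas 2.3.3, numpy 2.4.6, scipy 1.17.1 and matplotlib 3.10.9. With 1 library per genotype no test was possible. Log2 ratios used a pseudocount of 0.1 FPKM, medians took genes with a mean FPKM of 1 or more, and fold counts a ratio of at least 2 with both libraries at 0.1 FPKM or more and no pseudocount. Symbols were matched to GENCODE M21 (20911 as written, 1913 by an older symbol, 460 not matched, and all 36 members matched). Transcript length is that of the transcript with the longest coding sequence, and the length correction subtracts the median of its bin among 20. Depth was fitted to values below 0.3 FPKM, of which 48.0% of 319 (WT) and 49.0% of 390 (STAP-1 KO) came within 0.01 of whole reads (chance gives 2.0%). Files without read counts give this effective depth only as an estimate. Simulated data were used to test the ratio, length and depth steps.

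Members and lists were chosen with earlier results of these data known. Every member is named, and of the tRNA and amino acid lists the 3 genes furthest from 0 with a mean FPKM of 1 or more (of the complex scaffold, all). Mitochondrial ribosomal proteins were only counted. Myc, Atf4, Asns, Rpp25 and the overlapping neighbors were added after their values were seen. Alternatives changed the pseudocount, the filters, the fold, the scaling, the length correction and the genes included. Single items among the promoter matches and the marker genes are not reported here.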

Additional observations from a re-analysis of the deposited data

How the results depend on the processing

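No paired analysis was possible because each genotype has 1 library, and for the same reason no replicate could be left out. The cytosolic and mitochondrial medians stayed above 0, and their difference below 0, under every alternative run. The scalings multiply a whole library by 1 factor, so the difference stayed at -0.10 there and could not change sign. The median counting half-width for this difference was 0.24, so it lay within counting error in every setting. Where each library was divided by its total FPKM, which moves the median of all genes from -0.04 to 0.05, the cytosolic median was 0.64 and 9 genes were at least 2-fold higher (15.2% of all genes). With trimmed-mean scaling these were 0.63 and 9 (15.1%), and with median-ratio and upper-quartile scaling 7 genes were higher (13.2% and 13.7%). With the length correction 4 genes were higher (11.7%), and with the longest transcript 5 (11.9%). At 1.5-fold 18 genes were higher (25.6% of all genes) and 1 lower (32.8%), and at 4-fold 0 were higher (2.4%). Without the 14 genes that overlap another gene or have a copy, 3 of the 22 left were at least 2-fold higher (12.3% of all genes). The number was also 3 without 7 of them (Aars, Iars, Iars2, Hars, Hars2, Cars2 and Farsb, picked with no fixed rule). Both omissions of overlapping genes, the longest transcript and the omission of Lars2 were chosen after seeing the data. In the other settings the cytosolic median ran from 0.46 to 0.59, the mitochondrial median over all settings from 0.55 to 0.74 and their difference from -0.20 to -0.02. Single genes moved most with the length correction, where 26 of 36 shifted by more than their counting half-width and 33 were above 0, against 28 as deposited and 30 after division by the total. The low read numbers of Pars2, Wars2 and Ears2 limit their ratios most.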
